A study of Homo sapiens with 32 samples.

Results

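NFE2L2, the gene of the transcription factor NRF2, was followed together with its inhibitor KEAP1 and 7 redox genes that are commonly read as NRF2 targets (GCLC, GCLM, GSR, TXNRD1, SRXN1, NQO1 and OSGIN1). These 9 genes were taken by name from a table of 22610 gene entries, and each of them was found once. SK-N-BE(2), a human neuroblastoma line, was treated with 20 μM cannabidiol (CBD) in ethanol or with the vehicle alone (0.1% ethanol) for 3, 6, 12 or 24 h. Each of the 8 combinations of treatment and time was measured in 4 samples by RNA-Seq of polyadenylated RNA, 32 samples in all. All groups are of the same line, so the values describe 1 cell background, and no group had NFE2L2 or KEAP1 disrupted. The labels number the samples within a group but do not say whether they came from separate passages, so p-values measure the spread between these samples.

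NRF2 is controlled mainly as a protein. KEAP1 binds it and hands it to a ubiquitin ligase for degradation, and electrophiles or oxidants that modify cysteines of KEAP1 let NRF2 accumulate, pair with a small MAF protein and bind antioxidant response elements near its targets. The targets supply glutathione, reduced thioredoxin and NADPH, and a transcript level of NFE2L2 does not by itself report how active the protein is.

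The antioxidant response element was looked for as its core letters, TGACNNNGC, on both strands of the RefSeq promoter windows (GRCh38.p14, 250 bases before to 50 after a gene's start). Windows were searched for 8 of the 9 genes, GSR being the exception because its chromosome was left out of the search. Of their 11 windows 4, from 3 genes, held the core, against 13.3% of the 35116 windows searched. The sites are shown because they let the letters near these genes be read beside the transcript levels. Capitals mark the core, and each site is written in the direction in which the core reads.
GCLM, chr1:93909446-93909474, plus strand: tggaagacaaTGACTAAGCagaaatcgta
KEAP1, chr19:10502784-10502812, plus strand: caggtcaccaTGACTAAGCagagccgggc
TXNRD1, chr12:104286920-104286948, minus strand: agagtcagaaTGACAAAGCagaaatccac
In these sites the core was followed by an A, a longer form that 3.18% of windows held. KEAP1 and TXNRD1 held further cores without that A. TXNRD1 has more than 1 annotated start, and its site shown lay in the window chr12:104286782-104287081. Its cores without that A lay in the upstream window chr12:104215529-104215828. A region added after the data were seen was the 1000 bases before the start of the Ensembl canonical transcript on GRCh37, with GSR again left out. KEAP1 held no core in this region, and the TXNRD1 core there was without that A. The core was held by 5 of 8 genes, among them NQO1, GCLC and OSGIN1, against 32.5% of the 19161 genes searched.
NQO1, GRCh37 chr16:69760900-69760928, minus strand: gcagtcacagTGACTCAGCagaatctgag
GCLC, GRCh37 chr6:53410751-53410779, plus strand: aaatatgtgtTGACAGAGCaatgacctgt
OSGIN1, GRCh37 chr16:83986278-83986306, plus strand: agacaatctgTGACTTGGCcccagttttc
The NQO1 core began 455 bases before the start, the GCLC core 870 and the OSGIN1 core 557 bases before it. A match is a match of letters and not a measured binding site, and its absence from a window says only that these letters are not there.

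FPKM, reads scaled for transcript length and for the size of the library, do not record depth. Relative depth estimated from rarely detected genes ranged over 1.53-fold between samples, with group medians of 0.925 to 1.05, and single samples had 19359 to 19962 entries above 0. Markers of neuroblastoma were present (10 of 10 with a mean of at least 1 FPKM), whereas of 15 markers of blood, epithelial, hepatic, endothelial and fibroblast cells 3 reached that level (DCN at 7.15, EPCAM at 2.51 and COL1A1 at 1.502 FPKM). In bulk RNA, a change in the number of cells of a kind and a change in RNA per cell cannot be told apart. The reads of some members can also belong to overlapping genes. In GENCODE on GRCh37, 90.6% of the 50-base words of SRXN1 transcripts occur in a readthrough gene over the same locus, 36.1% of those of NFE2L2 occur in other genes including HNRNPA3, and 16.7% of those of NQO1 do, mostly in an antisense transcript, so these levels are uncertain where the counting split such reads.

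Compared per length, TXNRD1 was the most abundant of the 9 transcripts, with a mean of 85.3 FPKM over the 32 samples (69.4 to 94.8). NFE2L2 followed at 64.2, KEAP1 at 45.9 and GSR at 40.2 FPKM, and the ranges of each neighbouring pair, pooled over treatments and times, overlapped. Within every sample TXNRD1 lay above NFE2L2 and NFE2L2 above KEAP1. KEAP1 lay above GSR in every sample up to 12 h and below it in every sample at 24 h. GCLC stood apart from both its neighbours at 17.0 FPKM (14.6 to 19.2). SRXN1 (9.95 FPKM), NQO1 (7.93) and GCLM (7.32) formed a group with overlapping ranges, and OSGIN1 was lowest at 0.432 FPKM (0.137 to 0.941). A mean of at least 1 FPKM was required for testing across genes, which kept 12621 entries and 8 of the 9 genes, OSGIN1 being left out.

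**Figure D1:**
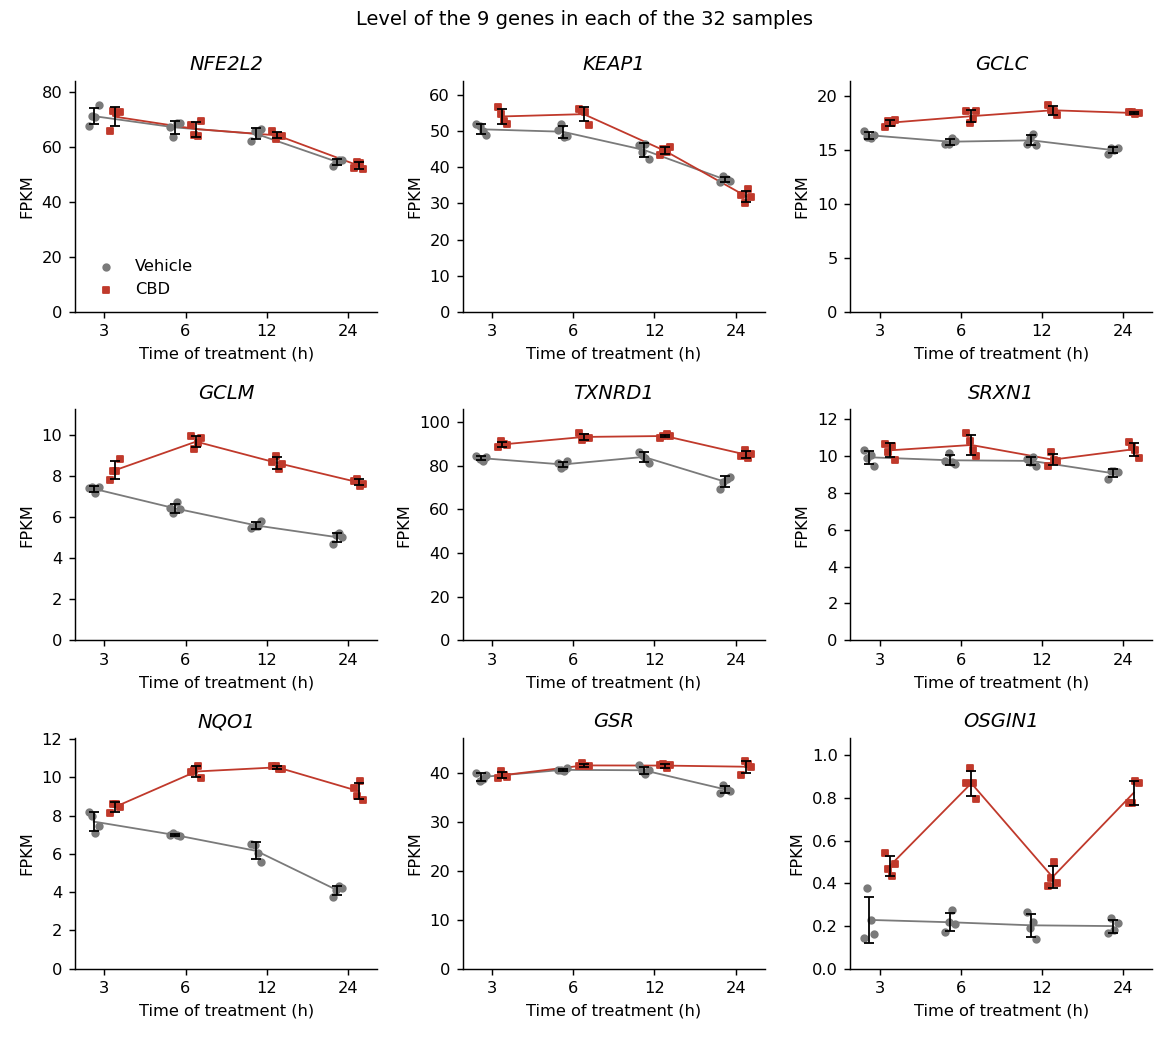
FPKM (y axis, from 0) of each of the 9 genes in each sample against time of treatment (x axis, h, not to scale); circles are vehicle and squares CBD samples, and black bars give the group mean ± SD (n = 4). NFE2L2 runs together in both treatments, and the NQO1 groups separate as vehicle drops from 7.69 to 4.10 FPKM while CBD is at 8.45 and 9.28.

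GCLC, GCLM and TXNRD1 were higher with CBD at every time and NQO1 from 6 h on, GSR and SRXN1 were called at 24 h alone, and NFE2L2 did not pass the test at any time. By limma's moderated test on log2(FPKM + 1), with a Benjamini-Hochberg adjusted p under 0.01, 3 of the 8 tested genes were higher with CBD at 3 h (GCLC, GCLM and TXNRD1), where 1.18% of all 12621 entries were higher. At 6 h 5 were higher (with NQO1 and KEAP1 added) against 4.07% of all entries, and at 12 h 4 were higher (KEAP1 no longer) against 8.85%. At 24 h all 6 tested targets were higher, against 20.8% of all entries, and KEAP1 was lower, against 21.3%. The median log2 fold change of the 6 targets was 0.098, 0.20, 0.19 and 0.25 at 3, 6, 12 and 24 h, beside 0.0066, -0.0048, -0.0043 and -0.0032 over all entries tested.

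Samples of the groups were also compared without a model. Every CBD sample lay above every vehicle sample for 3 of the 8 tested genes at 3 h (5.52% of all entries tested), for 5 at 6 h (8.46%), for 4 at 12 h (13.4%) and for 6 at 24 h (25.1%). The 5 at 6 h were not the 5 called ones, since KEAP1 was called but overlapped and GSR was separated but not called. KEAP1 at 24 h was the case in which every CBD sample lay below every vehicle sample, as 25.9% of all entries did. Fold changes are of FPKM with 1 added, which understates the change of low genes such as NQO1 and GCLM.

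The calls at 3 h were small and the least stable. With the 3 h samples fitted alone none of the 3 was called (adjusted p = 0.0928 for GCLC, 0.116 for GCLM and 0.0398 for TXNRD1 from limma, each the highest of its alternatives, whose lowest were 0.00407, 0.000698 and 0.00179). The calls of all 3 were lost without vehicle replicate 3 (adjusted p from limma of 0.0308 for GCLC, 0.0188 for GCLM and 0.0112 for TXNRD1) and without CBD replicate 2 (0.0274, 0.0114 and 0.0129). GCLM was also lost without CBD replicate 4 (0.0154), and GCLC without that replicate (0.0191), CBD replicate 3 (0.0181) or vehicle replicate 2 (0.0243) or 4 (0.0179). Relative depth at 3 h had a median of 0.925 with CBD and 1.045 with vehicle, and with it as a term GCLC was lost (adjusted p = 0.0234 from limma) while GCLM and TXNRD1 were still called. Under quantile normalization the calls of GCLC (0.0123) and TXNRD1 (0.0177) were lost.

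**Figure D2:**
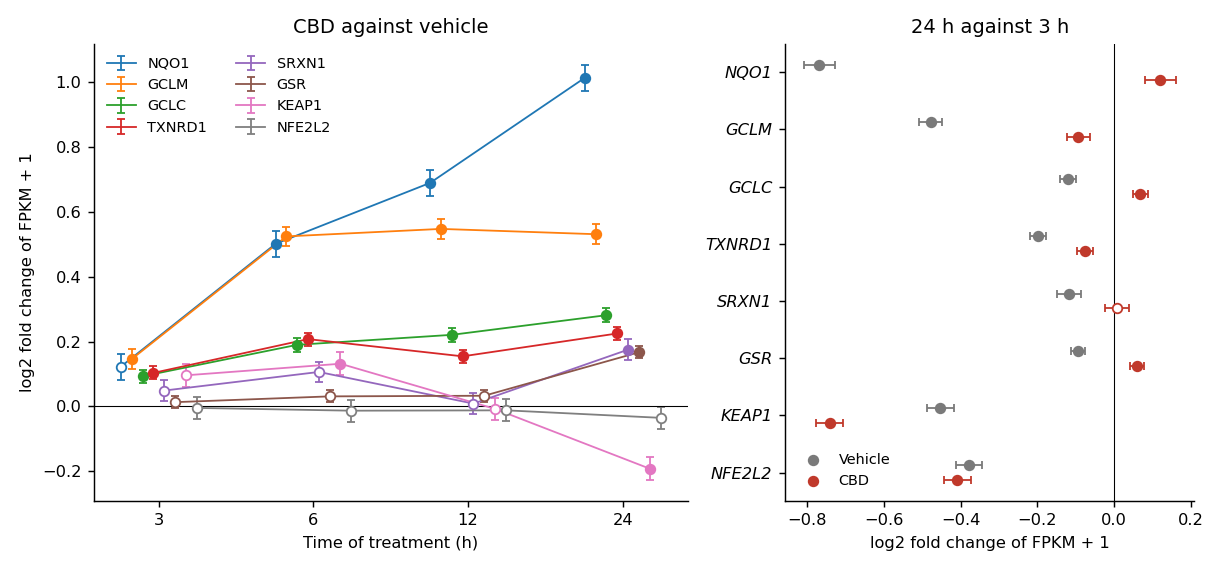
Left, log2 fold change of FPKM + 1 (CBD against vehicle, y axis) with its standard error at each time (x axis, h) for the 8 tested genes; right, the same scale for 24 h against 3 h within vehicle (grey) and within CBD (red). Filled points passed an adjusted p of 0.01 in limma and open points did not; NQO1 reaches 1.01 at 24 h, KEAP1 goes from 0.13 at 6 h to -0.19 at 24 h, and NFE2L2 is unfilled at all 4 times on the left.

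NFE2L2 (chr2:178083395-178257484 on GRCh37, minus strand) had 67.9, 71.2, 70.9 and 75.3 FPKM in the vehicle samples at 3 h and 66.0, 73.2, 72.4 and 72.8 with CBD. At 24 h the vehicle samples had 53.2, 54.7, 55.3 and 55.3 FPKM and the CBD samples 52.3, 54.7, 54.2 and 51.9. The groups overlapped at every time. The means lay farthest apart at 24 h, at 54.6 ± 0.979 FPKM with vehicle and 53.3 ± 1.39 with CBD (SD, n = 4). The log2 fold changes were -0.0044, -0.013, -0.012 and -0.035 at 3, 6, 12 and 24 h (SE 0.034), with limma's adjusted p at 0.97, 0.839, 0.846 and 0.413, and their sign at 3, 6 and 12 h turned under another setting or without 1 sample. NFE2L2 fell with time in both treatments, by 0.38 on the log2 scale in vehicle and by 0.41 with CBD between 3 and 24 h.

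KEAP1 (chr19:10596801-10614234, minus strand), the adaptor that holds NRF2, changed in both directions. At 6 h the vehicle samples had 50.4, 51.9, 48.4 and 48.7 FPKM and the CBD samples 56.3, 55.6, 55.3 and 51.8. The highest vehicle sample slightly exceeded the lowest CBD sample, and the log2 fold change of 0.13 (SE 0.035, adjusted p = 0.00892 from limma) was narrowly called. At 24 h the vehicle samples had 36.0, 37.5, 36.7 and 36.3 FPKM against 32.2, 30.01, 33.9 and 31.7 with CBD. There was no overlap at 24 h, the log2 fold change was -0.19 (SE 0.035, adjusted p = 4.8e-05 from limma), and the difference between the effects at 24 and 3 h, -0.29 (SE 0.049), was called too (adjusted p = 4.47e-05 from limma).

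The KEAP1 call at 24 h held under all 19 alternatives, with limma's adjusted p from 1.48e-05 to 0.00267. That at 6 h was lost under 9 of 19 (0.00239 to 0.044), among them without vehicle replicate 1 (0.0154), 3 (0.0366) or 4 (0.0337) and without CBD replicate 1 (0.0346), 2 (0.0299) or 3 (0.027). At 3 h and 12 h KEAP1 was not called (log2 fold change 0.096 and -0.0074, the second of these turning sign under both other scalings).

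Glutamate-cysteine ligase makes the rate-limiting step of glutathione synthesis. Its catalytic subunit GCLC (chr6:53362139-53481768, minus strand) was higher with CBD at every time. At 3 h the vehicle samples had 16.8, 16.2, 16.1 and 16.4 FPKM and the CBD samples 17.1, 17.7, 17.5 and 17.8, and at 24 h 14.6, 15.2, 15.0 and 15.2 against 18.5, 18.5, 18.3 and 18.4. The groups did not overlap at any of the 4 times, though at 3 h they nearly touched. Its log2 fold changes across the 4 times were 0.093, 0.19, 0.22 and 0.28 (SE 0.021), with limma's adjusted p = 0.00672 for the earliest and 1.45e-11 for the latest. In FPKM the CBD mean exceeded the vehicle mean by 7.07% at 3 h and by 22.9% at 24 h.

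GCLM (chr1:94350755-94375012, minus strand), the modifier subunit that raises the enzyme's affinity for glutamate, changed more than GCLC. Vehicle samples had 7.41, 7.44, 7.14 and 7.46 FPKM at 3 h and CBD samples 7.78, 8.24, 8.21 and 8.82. At 6 h the values were 6.42, 6.16, 6.70 and 6.37 with vehicle and 9.91, 9.29, 9.60 and 9.82 with CBD. The gap opened between these times, and no later group overlapped. At 12 h vehicle was at 5.58 ± 0.153 and CBD at 8.62 ± 0.271 FPKM (SD, n = 4), and at 24 h vehicle was at 4.70, 5.12, 5.19 and 5.02 and CBD at 7.73, 7.86, 7.52 and 7.59. The log2 fold changes were 0.15 (SE 0.030, adjusted p = 0.00342 from limma), 0.52, 0.55 and 0.53 (adjusted p = 6.78e-14 at 24 h). Between 3 and 24 h the effect grew by 0.38 for GCLM (SE 0.043, adjusted p = 7.03e-08 from limma) and by 0.19 for GCLC (SE 0.029, adjusted p = 1.31e-05).

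Because both subunits are measured per length, their ratio could be set side by side in each sample. With vehicle, the GCLM to GCLC ratio was 0.450 ± 0.00866 at 3 h and 0.334 ± 0.01005 at 24 h (SD, n = 4), and with CBD it was 0.471 ± 0.0182 and 0.417 ± 0.00595. At 6 h the 4 CBD samples had ratios of 0.533, 0.531, 0.538 and 0.529 and the vehicle samples 0.413, 0.396, 0.416 and 0.403. The ratio was higher with CBD in every sample at 6, 12 and 24 h (exact two-sided permutation test p = 0.0286 at each, the smallest that 4 against 4 allows, 0.0381 adjusted over the 4 times). At 3 h the groups overlapped (exact permutation p = 0.0857). The CBD mean was 1.31 times the vehicle mean at 6 h and 1.25 times at 24 h.

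**Figure D3:**
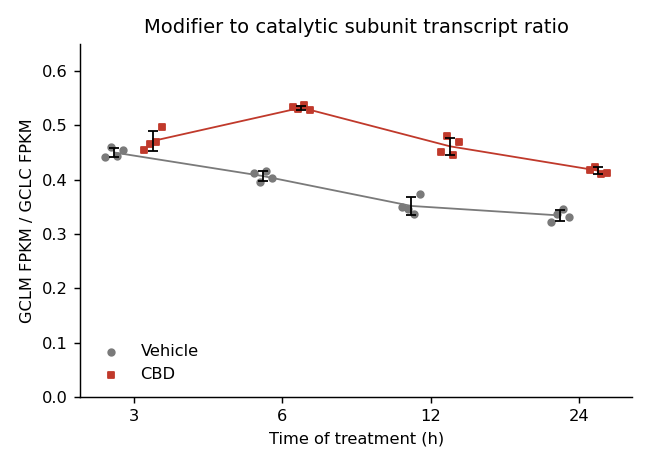
Ratio of GCLM to GCLC FPKM (y axis, from 0) in each sample by time (x axis, h, not to scale), with circles for vehicle, squares for CBD and bars for mean ± SD (n = 4). Both treatments are near 0.45 to 0.47 at 3 h, after which the CBD samples, highest at 0.538 at 6 h, stay above vehicle.

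GSR, glutathione reductase, returns oxidized glutathione to its reduced form with NADPH. It was not called at the first 3 times, with log2 fold changes of 0.013, 0.031 and 0.033 (adjusted p = 0.719, 0.254 and 0.189 from limma), the first turning to -0.0044 under quantile normalization. At 6 h the CBD samples (41.4 to 42.0 FPKM) nevertheless all lay above the vehicle samples (40.5 to 41.0). At 24 h the vehicle samples had 36.0, 37.7, 36.8 and 36.5 FPKM and the CBD samples 39.6, 42.6, 41.8 and 41.4. These did not overlap, and the log2 fold change was 0.17 (SE 0.018, adjusted p = 2.59e-08 from limma), 0.15 above that at 3 h (SE 0.026, adjusted p = 3.85e-05).

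TXNRD1 (chr12:104609557-104744085, plus strand), the cytosolic thioredoxin reductase, was higher at all times. At 3 h the vehicle samples had 84.3, 83.2, 82.3 and 84.0 FPKM and the CBD samples 88.3, 91.5, 89.8 and 89.3. At 24 h they had 69.4, 72.4, 73.7 and 75.0 against 84.5, 87.0, 83.4 and 85.2. CBD samples lay above vehicle samples at each time, with log2 fold changes of 0.10 (adjusted p = 0.00228 from limma), 0.21, 0.15 and 0.22 (SE 0.020, adjusted p = 6.08e-10 at 24 h). The mean difference, 12.4 FPKM at 24 h, was the largest in FPKM among the 9 genes at that time, although in proportion OSGIN1, NQO1, GCLM and GCLC changed more.

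SRXN1 (chr20:627259-633844, minus strand) encodes sulfiredoxin, which repairs overoxidized peroxiredoxins. Its groups overlapped at 3, 6 and 12 h, and the log2 fold changes of 0.049, 0.11 and 0.0089 were not called (adjusted p = 0.374, 0.0187 and 0.877 from limma). Without CBD replicate 4 the 6 h difference was 0.13 and was called (adjusted p = 0.00452, range over the alternatives 0.00452 to 0.11). The samples parted at 24 h, with 8.76, 9.17, 9.21 and 9.16 FPKM in vehicle and 10.7, 10.5, 10.4 and 9.92 with CBD. The log2 fold change was then 0.18 (SE 0.032, adjusted p = 4.2e-05 from limma), but its excess over that at 3 h, 0.13, was not called (adjusted p = 0.0271).

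NQO1 (chr16:69740899-69760571, minus strand), a quinone reductase long used as a readout of NRF2, had the largest log2 fold change of the tested members from 12 h on. Vehicle samples at 3 h had 8.21, 7.99, 7.11 and 7.44 FPKM and CBD samples 8.11, 8.63, 8.63 and 8.43, and these overlapped. At 6 h the vehicle samples had 6.97, 7.08, 6.98 and 6.91 and the CBD samples 10.3, 10.4, 10.6 and 9.95. At 12 h they had 6.53, 6.46, 6.07 and 5.58 against 10.6, 10.6, 10.4 and 10.4. From 6 h on no CBD sample came near the vehicle range. At 24 h the vehicle samples had 3.74, 4.13, 4.32 and 4.20 FPKM and the CBD samples 9.46, 9.01, 9.79 and 8.83.

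Log2 fold changes of NQO1 were 0.12, 0.50, 0.69 and 1.01 in order of time (SE 0.040). The earliest was not called (limma's adjusted p = 0.0612), and the latest had an adjusted p of 5.56e-17. In FPKM the CBD mean was 1.47, 1.71 and 2.26 times the vehicle mean at 6, 12 and 24 h. The effect widened by 0.89 from 3 to 24 h (SE 0.057, adjusted p = 3.25e-12 from limma). Much of that widening lay in the vehicle samples, in which NQO1 fell by 0.77 between 3 and 24 h, while CBD samples went from 8.45 ± 0.243 to 9.28 ± 0.435 FPKM (SD, n = 4).

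OSGIN1 (chr16:83964916-83999937, plus strand), oxidative stress induced growth inhibitor 1, was below the level required for testing across genes and was compared mainly on FPKM. At 3 h the vehicle samples had 0.143, 0.377, 0.230 and 0.165 FPKM and the CBD samples 0.543, 0.465, 0.432 and 0.491. At 6 h they had 0.170, 0.219, 0.273 and 0.209 against 0.868, 0.941, 0.868 and 0.796. Every CBD sample was higher than every vehicle sample at these times. At 12 h the vehicle samples had 0.268, 0.190, 0.218 and 0.137 FPKM and the CBD samples 0.389, 0.425, 0.5003 and 0.401, and at 24 h 0.168, 0.236, 0.183 and 0.213 against 0.775, 0.777, 0.878 and 0.867.

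The CBD mean of OSGIN1 was 2.11, 3.99, 2.11 and 4.13 times the vehicle mean at 3, 6, 12 and 24 h, the largest ratios of the 9 genes at each time. The exact two-sided permutation test gave p = 0.0286 at each time, the smallest possible with 4 against 4 and unchanged by adjustment over the 4 times. With no filter on low values, limma put the OSGIN1 log2 fold change at 0.27, 0.62, 0.25 and 0.60 for the successive times (SE 0.043, adjusted p from 1.92e-11 to 0.00043). The CBD samples at 12 h, at most 0.5003 FPKM, lay wholly below those at 6 h (at least 0.796) and at 24 h (at least 0.775), whereas vehicle means stayed between 0.200 and 0.229 FPKM. Of the other 6 targets, SRXN1 alone had its lowest CBD mean at 12 h (9.81 FPKM, against 10.6 at 6 h and 10.4 at 24 h).

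The vehicle samples themselves changed with time. All 8 tested genes were lower at 24 h than at 3 h with vehicle, as were 31.1% of all entries tested. NQO1 fell by 0.77, GCLM by 0.48, KEAP1 by 0.45 and NFE2L2 by 0.38 on the log2 scale, and TXNRD1, GCLC, SRXN1 and GSR by 0.20, 0.12, 0.12 and 0.093, with limma's adjusted p from 8.79e-15 to 0.00183. The calls of SRXN1 were lost without vehicle replicate 1 at 3 h (adjusted p = 0.0107 from limma) or at 24 h (0.0102, range over the alternatives 0.000434 to 0.0107), and that of GSR under quantile normalization (0.19, range 3.66e-05 to 0.19).

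With CBD the course from 3 to 24 h divided the genes. KEAP1 fell by 0.74 and NFE2L2 by 0.41, and GCLM and TXNRD1 fell by 0.094 and 0.077, where 35.7% of all entries were lower. NQO1, GCLC and GSR were higher by 0.12, 0.068 and 0.060, as were 32.1% of all entries, and SRXN1 was not called (0.0077, adjusted p = 0.844 from limma). Except for those of KEAP1 and NFE2L2 these changes were small and depended on the setting. TXNRD1 changed to 0.072 under quantile normalization (adjusted p = 0.00104 from limma, range over the alternatives 0.00069 to 0.00968).

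The remaining calls of CBD at 24 h against 3 h were lost without single CBD samples. For GCLC these were replicates 1 and 3 at 3 h and 1 and 2 at 24 h (limma's adjusted p from 0.0102 to 0.0201), and for GCLM replicates 2, 3 and 4 at 3 h and 1, 3 and 4 at 24 h (0.0109 to 0.0493). For NQO1 they were any replicate at 3 h and 1 and 3 at 24 h (0.0108 to 0.0445), and for GSR replicates 1 and 4 at 3 h and 2, 3 and 4 at 24 h (0.0109 to 0.0303). The change of the CBD effect between 3 and 24 h, which uses all 4 groups, was called for 5 genes upward (NQO1, GCLM, GCLC, GSR and TXNRD1, 12.9% of all entries) and for KEAP1 downward (14.3%), and these 6 calls held without any 1 sample.

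The rest of the pathway was read from 6 lists with 104 genes other than the members, of which 92 could be tested. Like the members, these lists were chosen with earlier results of these data known, so the counts only describe the sets chosen. At 3 h 6 were higher and 3 lower (all entries: 1.18% higher and 1.28% lower), and at 6 h 17 and 2 (4.07% and 6.13%). At 12 h 22 were higher and 12 lower (8.85% and 11.2%), and at 24 h 36 and 19. Of all entries 20.8% were higher and 21.3% lower at 24 h, so that the 19 of 92 lower genes are no more than the share of all entries. Over the 92 genes the median log2 fold change at 24 h was 0.066.

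Among partners and regulators of NRF2 (12 tested) 4 were higher and 4 lower at 24 h, where all entries had 20.8% higher and 21.3% lower. SQSTM1, the autophagy receptor that can sequester KEAP1, was higher by 0.56 at 24 h (adjusted p = 1.18e-12 from limma) and by 0.37 at 6 h. Of the small MAF proteins that pair with NRF2, MAFF was higher at every time (0.32, 0.39, 0.53 and 0.55) and MAFG from 6 h on (0.28 at 6 h, 0.19 at 24 h). BTRC, which with GSK3B marks NRF2 for a KEAP1-independent route of degradation, was lower at every time (-0.11, -0.10, -0.14 and -0.23), and GSK3B was lower at 3 h (-0.16) and 24 h (-0.14). RBX1, a subunit of the ubiquitin ligase that KEAP1 serves, was lower at 24 h (-0.20). The remaining genes of this list called at 24 h were BACH2, higher by 0.18 (adjusted p = 3.79e-06 from limma), and DPP3, lower (-0.15, adjusted p = 6.53e-05 from limma).

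In glutathione synthesis, turnover and cystine supply (10 tested), 3, 4, 7 and 7 genes were higher in order of time (all entries: 1.18%, 4.07%, 8.85% and 20.8%) and the rest were not called. The list has genes of opposite roles. SLC7A11 and SLC3A2, the subunits of the cystine importer, had log2 fold changes of 0.47 and 0.28 at 3 h, which had reached 1.41 and 0.79 by 24 h (limma's adjusted p = 3.14e-12 and 3.45e-12). Both were called at every time. CHAC1, which breaks glutathione down, was higher by 1.08 at 3 h, 1.16 at 6 h and 0.78 at 24 h. Of the enzymes that use glutathione (22 tested), 1 was lower at 12 h (all entries: 11.2% lower). At 24 h 3 were higher and 4 lower, both below the shares of all entries (20.8% and 21.3%). GSTM4 was higher by 0.36, ESD by 0.19 and HAGH by 0.15, while the transferase GSTM2 (-0.16) and the glutaredoxin GLRX2 (-0.13) were lower.

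The thioredoxin system other than TXNRD1 and SRXN1 (18 tested) had 1 lower gene at 3 h (all entries: 1.28% lower). At 6 h 2 were higher and 1 lower (4.07% and 6.13%), and at 12 h 0 were higher and 5 lower (8.85% and 11.2%). At 24 h 2 were higher and 7 lower (20.8% and 21.3%). TXNIP, the protein that binds and inhibits thioredoxin, was lower with CBD than with vehicle at every time. Its log2 fold changes were -0.43, -0.57, -0.70 and -0.84 at 3, 6, 12 and 24 h (limma's adjusted p = 1.94e-17 at the last time). Between 3 and 24 h its mean rose in both treatments, from 27.0 to 51.0 FPKM with vehicle and from 19.8 to 28.1 with CBD. RRM2, a ribonucleotide reductase subunit of dividing cells, was lower at 12 h (-0.27) and 24 h (-0.46). Also lower at 24 h were MSRB1 (-0.31), RRM1 (-0.20) and the peroxiredoxins PRDX1 (-0.13), PRDX2 (-0.19) and PRDX3 (-0.10). PRDX1 had been higher at 6 h (0.12). Thioredoxin reductase TXNRD3 was higher at 24 h (0.16), as was TXNL1 (0.083). Among genes of NADPH supply (12 tested), 7 were higher and 1 lower at 24 h (all entries: 20.8% higher and 21.3% lower). ME1, malic enzyme, was higher by 0.56 and the transketolase TKT by 0.32, whereas the mitochondrial transhydrogenase NNT was lower (-0.14).

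Other genes commonly listed as NRF2 targets (18 tested) were higher in 2, 6, 9 and 13 cases at 3, 6, 12 and 24 h, and lower in 4 at 12 h and 3 at 24 h, where all entries had 1.18%, 4.07%, 8.85% and 20.8% higher, and 11.2% and 21.3% lower at the last 2 times. HMOX1, heme oxygenase 1, was higher by 0.46, 1.47, 1.59 and 2.11 (adjusted p = 2.1e-18 at 24 h from limma), the last of these above that of any tested member. The heme transporter SLC48A1 was higher by 0.86, TRIM16L by 0.75 and TRIM16 by 0.61 at 24 h, and TXNDC17 (-0.26) and UGDH (-0.20) were lower.

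**Figure D4:**
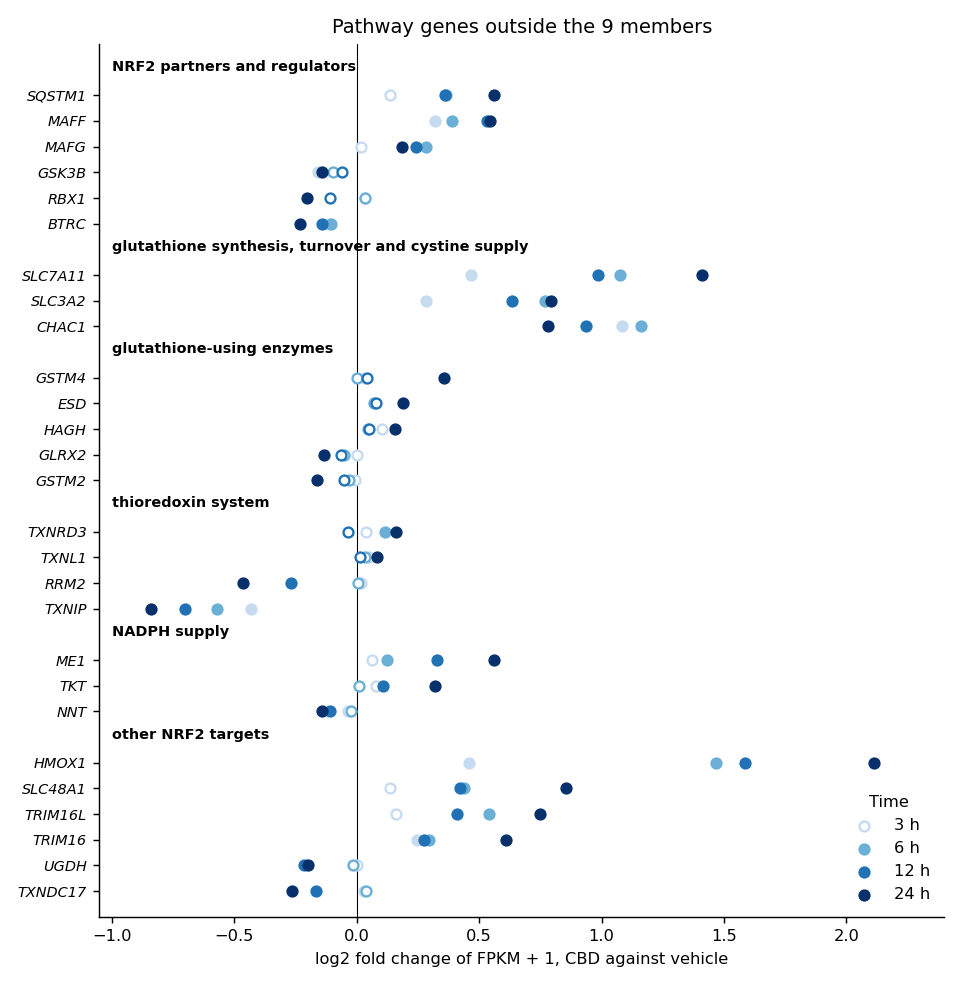
Log2 fold change of FPKM + 1, CBD against vehicle (x axis), at 4 times (darker blue for later times) for the genes named from the 6 lists (y axis, grouped by list). Filled points passed an adjusted p of 0.01 in limma and open ones did not; HMOX1 lies farthest right at 2.11 and TXNIP farthest left at -0.84, both at 24 h.

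Across the 32 samples Pearson's r of log2(FPKM + 1) lay between 0.508 and 0.931 for pairs of the 7 targets and between -0.209 and 0.447 for NFE2L2 with a target. It was 0.931 between GCLM and NQO1, 0.913 between TXNRD1 and NQO1 and 0.907 between GCLC and NQO1, and 0.303 between NFE2L2 and NQO1. NFE2L2 and KEAP1 had r = 0.867 with each other. The samples share treatment, time and library preparation, so these values describe the set as a whole. The 3 entries most like each target by r over the 32 samples were ETV5 (0.975), ETV4 (0.971) and DUSP6 (0.954) for NQO1, SLC3A2 (0.95), ETV5 (0.937) and DUSP6 (0.936) for GCLM, and SPRY4 (0.95), ETV5 (0.946) and DUSP6 (0.938) for GCLC. TXNRD1 was most like DUSP6 (0.928), PSAT1 (0.907) and SLC3A2 (0.907), OSGIN1 most like SQSTM1 (0.902), SLC7A11 (0.902) and TRIM16 (0.893), SRXN1 most like PEA15 (0.872), HMGXB3 (0.853) and FBXO7 (0.851), and GSR most like ACAT2 (0.858), SEC24D (0.849) and EIF2B3 (0.842).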

How the data were processed

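The authors' pipeline ran from read trimming (Trimmomatic, 0.36) through Tophat alignment on hg19 to Cufflinks, which gave an FPKM for every gene and sample. These deposited FPKM were used as they stand. A second deposited table holds the authors' own Cuffdiff fold changes and q-values and was not used. All 32 columns were mapped to samples by their labels. FPKM were analysed as log2(FPKM + 1) for entries with a mean of at least 1 FPKM (12621), in 1 model of 8 group means, in limma (version 3.58.1, R 4.3.3; functions lmFit, contrasts.fit and eBayes, the last with its intensity trend switched on). P-values were adjusted by Benjamini-Hochberg within each comparison and called under 0.01. The fit was tested on simulated data. Exact permutation tests used scipy version 1.17.1 under Python version 3.11.15. Gene positions, canonical starts and transcript words came from GENCODE version 44 on GRCh37, promoter windows from RefSeq on GRCh38.p14.

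Depth is unknown from FPKM, so no counting interval is given. Relative depth came from 1414 entries that were above 0 in only 2 to 8 samples, using their values within 1.4 times the lowest. The members and lists were chosen with earlier results of these data known. The genes named were the 9 members, of each list the 3 highest and 2 lowest log2 fold changes among those called at 24 h and any called at 3 h, and for each target the 3 entries of highest Pearson's r. Of the genes this rule named, 1 is not reported here. The alternatives were an added value of 0.1 or 5, the filter removed or raised to a mean of 5 FPKM, median-ratio scaling, quantile normalization, only the compared groups fitted, a replicate block, relative depth as a term, no intensity trend, a threshold of 0.05 and each sample left out.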

Additional observations from a re-analysis of the deposited data

Results flagged for a closer look

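The CBD effect at 24 h differed from that at 3 h, by limma's test of the difference itself, for 6 members: on the log2 scale it was larger at 24 h by 0.89 for NQO1, 0.38 for GCLM, 0.19 for GCLC, 0.15 for GSR and 0.12 for TXNRD1, and changed by -0.29 for KEAP1. In 3 of the 72 groups of 4 member values, 1 sample stood apart from the other 3 by Dixon's criterion, which chance gives in about 1 of 20 groups. These were NFE2L2 in CBD replicate 1 at 3 h (66.0 FPKM, the others 72.4 to 73.2), GCLM in vehicle replicate 3 at 3 h (7.14, the others 7.41 to 7.46) and SRXN1 in vehicle replicate 1 at 24 h (8.76, the others 9.16 to 9.21).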

How the results depend on the processing

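Of 1128 member values under an alternative, 1044 kept direction and side of the threshold, 59 lost the call, 5 gained one and 20 changed sign; at 24 h against vehicle all 152 kept both. At 3 h, 3 members were called, but 1 under quantile normalization and 0 with the compared groups alone, and 0 to 3 without 1 sample; all entries called numbered 310, but 189 with relative depth as a term, 29 with the compared groups alone, 917 at 0.05 and 164 to 493 without 1 sample. At 6 h the 1288 entries called became 425 with the compared groups alone and 2434 at 0.05. For CBD at 24 h against 3 h, 7 members were called, but 4 with the compared groups alone and 4 to 5 without 1 sample. Signs changed for KEAP1 at 12 h (0.0016 under median-ratio and 0.0039 under quantile scaling), GSR at 3 h (-0.0044, quantile), NFE2L2 at 12 h (0.012 quantile, 0.0010 with relative depth) and 3 h (0.0058 with relative depth), the NFE2L2 change of effect (0.033, quantile) and TXNRD1 in CBD at 24 h against 3 h (0.072, quantile). Without 1 sample, ranges that crossed 0 were NFE2L2 at 3 h (-0.028 to 0.031), 6 h (-0.038 to 0.0044) and 12 h (-0.032 to 0.0011), KEAP1 (-0.034 to 0.010) and SRXN1 (-0.010 to 0.023) at 12 h and SRXN1 in CBD at 24 h against 3 h (-0.014 to 0.027). Causes were not tested. OSGIN1 entered when no filter was used. Replicate numbers were no pairing: of 16 same-numbered pairs the correlations of deviations were -0.0757 to 0.0935, and with a replicate block 447 entries were called at 3 h and SRXN1 was called at 6 h (adjusted p = 0.00596 from limma) and in the change of effect (0.00986). The core motif was found before 3 members, also with a following A, and before 5 in the 1000-base region. In that region KEAP1 held no core and the TXNRD1 core lacked the A. FPKM without counts limit what can be said of low genes such as OSGIN1.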
